A study of Mus musculus with 6 samples.

Results

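5 lectin-like receptor genes of natural killer (NK) cells, Klrk1, Klrc1, Klrc2, Klrd1 and Klrb1c, were followed in CD4+ T cells sorted from aneurysmal aorta and from spleen. They were taken by their gene symbols from a count table of 27998 genes, all 5 were present in it, and they were described by tissue and by whether a cell held RNA of Foxp3, Ifng, Cxcr6 or Zbtb16.

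The samples were 3 vascular and 3 spleen libraries of CD4+ T cells from C57/B6 mice labelled with the treatment PPE, in which an abdominal aortic aneurysm had been induced by elastase at 8 to 12 weeks of age. Tissue was taken 14 days after surgery, and both groups came from treated mice, so untreated aorta was not analysed here. The aorta was digested with enzymes while the spleen was ground, so tissue of origin and digestion cannot be told apart. Libraries were made with a droplet kit that captures the 5' end of transcripts, and no label states that the replicates were different animals, so p-values here reflect only library-to-library spread, possibly technical.

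Klrk1 encodes NKG2D, an activating receptor that signals through the adaptor DAP10 (Hcst) and, in mouse, also DAP12 (Tyrobp), and binds stress-induced relatives of MHC class I. Klrd1 encodes CD94, which pairs with NKG2A (Klrc1) to form an inhibitory receptor, or with NKG2C (Klrc2) to form an activating one, and both pairs bind the non-classical class I molecule Qa-1 (H2-T23). Klrb1c encodes NK1.1, the antigen by which NK cells and many NKT cells are recognised in C57BL/6 mice. The receptors are best known from NK cells and are also carried by subsets of activated T cells.

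All 5 genes are protein coding and lie in the NK gene complex of mouse chromosome 6 (GRCm38). Klrb1c lies at chr6:128778485-128789215 on the minus strand, 802566 bases from Klrd1 at chr6:129591782-129598775 on the plus strand. Klrk1 follows at chr6:129610323-129623864, Klrc2 at chr6:129647496-129660689 and Klrc1 at chr6:129666015-129678973, all on the minus strand, with 11547 bases between Klrd1 and Klrk1, 23631 between Klrk1 and Klrc2 and 5325 between Klrc2 and Klrc1. Of the 60-base windows in the annotated transcripts of Klrc1, 31.5% (643 of 2040) also occur in Klrc2, so reads from these stretches cannot tell the neighbours apart. The windows span whole transcripts, while the kit captures the 5' end, and the effect on the counts was not tested. Klrb1c shares 15.5% of its windows with other genes, 12.0% with the gene model Gm44511, whereas Klrk1 and Klrd1 share 0. Promoters of 4 of the 5 genes matched the RefSeq table of GRCm38.p6, and they are shown because several of these genes moved together between tissues and gates. Each holds the core RUNX motif TGTGGT or its reverse complement ACCACA, given in capitals, in the 250 bases before to 50 bases after the start, written 5' to 3' on the gene's own strand.
Klrk1, chr6:129623815-129624114, minus strand: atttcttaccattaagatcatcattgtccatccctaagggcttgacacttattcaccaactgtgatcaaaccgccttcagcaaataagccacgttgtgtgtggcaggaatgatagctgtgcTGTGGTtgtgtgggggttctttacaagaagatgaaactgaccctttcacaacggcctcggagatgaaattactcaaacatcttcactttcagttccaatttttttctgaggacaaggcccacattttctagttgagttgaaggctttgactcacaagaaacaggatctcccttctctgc
Klrc1, chr6:129678924-129679223, minus strand: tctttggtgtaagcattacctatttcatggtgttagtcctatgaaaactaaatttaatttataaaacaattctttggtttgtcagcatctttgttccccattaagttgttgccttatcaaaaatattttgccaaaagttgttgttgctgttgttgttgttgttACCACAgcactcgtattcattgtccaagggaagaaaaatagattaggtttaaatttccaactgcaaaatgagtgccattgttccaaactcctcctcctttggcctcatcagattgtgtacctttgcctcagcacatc
Klrc2, chr6:129660547-129660846, minus strand: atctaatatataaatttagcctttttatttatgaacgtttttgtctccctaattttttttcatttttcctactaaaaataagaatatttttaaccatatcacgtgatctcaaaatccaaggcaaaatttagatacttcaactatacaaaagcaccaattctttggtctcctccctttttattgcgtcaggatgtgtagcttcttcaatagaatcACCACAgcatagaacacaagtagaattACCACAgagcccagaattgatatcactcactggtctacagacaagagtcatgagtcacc
Klrb1c, chr6:128788592-128788891, minus strand: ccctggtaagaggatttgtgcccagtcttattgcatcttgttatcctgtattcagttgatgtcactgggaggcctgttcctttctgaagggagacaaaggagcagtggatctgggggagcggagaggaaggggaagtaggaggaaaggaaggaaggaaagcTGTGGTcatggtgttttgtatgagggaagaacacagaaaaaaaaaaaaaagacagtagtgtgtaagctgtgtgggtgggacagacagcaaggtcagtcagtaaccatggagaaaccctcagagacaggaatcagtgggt
The first base of the motif lies at -129 from the start in Klrk1, at -87 in Klrc1, at -36 and at -9 in Klrc2, and at -89 in Klrb1c. A second annotated start of Klrc2 places the same pair of matches at -76 and -49. The motif in either direction occurs in 16.8% of the table's promoters (5506 of 32851), and the T-box letters GGTGTGA or TCACACC, present in 3.98% (1307), occur in none of these windows. RUNX and T-box proteins are transcription factors of T and NK cells, and a match of letters is a description, not a binding site.

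The 6 matrices held 41315 barcodes, 41303 passed the filters on cells, and 38696 were kept after 2607 predicted doublets had been removed. Per library 90.0 to 95.8% of the kept cells had a Cd3e UMI (unique molecular identifier, 1 counted RNA molecule), which left 17218 vascular and 18764 spleen cells, and a Cd4 UMI was found in 53.7 to 64.3% of them. Median depth was 4197, 4667 and 4865 UMIs per Cd3e+ cell in vascular replicates 1 to 3 and 5750, 5086 and 4928 in spleen replicates 1 to 3. Pairs of libraries shared 18 to 136 barcodes, 0.766 to 1.69% of the smaller one. Of the NK cell marker list all 9 genes were detected in Cd3e+ cells, with a summed level of 117 to 157 CPM (UMIs of a gene scaled to a common library total) in vascular libraries against 65.5 to 92.7 CPM in spleen libraries. The list includes Tyrobp and Fcer1g. Without cells holding a UMI of Siglech, Klk1, Ly6d or Tcf4 their vascular minus spleen log2 differences were -0.52 and 0.10. Klra4 was at 0 in every vascular library, and Ncr1 was found in at most 0.0717% of the cells of a library. Cd8a was found in 0.753 to 0.912% of vascular and 0.188 to 0.306% of spleen cells, and Cd8b1 in 5.02 to 7.17% and 7.45 to 9.62%, with a summed level of both genes of 31.3 to 33.4 CPM in vascular against 18.2 to 19.4 CPM in spleen libraries. Receptor genes were also fitted without cells holding a UMI of Ncr1, Cd8a, Cd8b1 or another lineage's marker, as given below. Markers of plasmacytoid dendritic cells were higher in the vascular libraries: all 6 genes of that list were detected, their summed level was 373 to 503 CPM in vascular tissue against 243 to 277 CPM in spleen, and Siglech was found in 1.02 to 1.57% of vascular against 0.0708 to 0.188% of spleen Cd3e+ cells.

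Klrk1 and Klrc1 RNA was several times more abundant, and carried by more cells, in vascular than in spleen Cd3e+ cells, Klrd1 was 2.0-fold higher, Klrb1c was lower, and for Klrc2 no difference passed the test. A gene was called at an adjusted p under 0.05 in edgeR's quasi-likelihood test on UMIs summed per library, adjusted over all 12229 genes tested. By that rule 4 of the 5 genes were called, beside 40.7% of all genes tested, so a call between these tissues is common and the sizes carry more than the number of calls. In sums over cells, fewer cells with a gene and less RNA per cell cannot be told apart.

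Klrk1, the activating NKG2D gene, was at 58.3, 32.4 and 37.9 CPM in vascular replicates 1 to 3, against 6.68, 6.99 and 5.91 CPM in the spleen replicates. Every vascular library stood above every spleen library, and replicate 1 was the highest of them. The log2 difference was 2.72 ± 0.22 (SE; 6.59-fold higher in vascular tissue, adjusted p = 4.38e-05, n = 3 libraries each). A Klrk1 UMI was found in 14.2, 10.3 and 10.9% of vascular cells, against 2.25, 1.84 and 1.5% of spleen cells. Carrier cells held on average 1.74 to 2.06 UMIs in vascular libraries and 1.958 to 2.16 in spleen libraries, so the ranges of UMIs per carrier overlapped while the shares of carriers did not.

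Klrc1, which encodes the inhibitory partner NKG2A, behaved likewise. Its level was 73.9, 46.9 and 36.4 CPM in vascular replicates, against 6.75, 6.52 and 7.83 CPM in spleen replicates, without overlap. It was 7.41-fold higher in vascular tissue (log2 difference 2.89 ± 0.25, adjusted p = 6.67e-05). The share of cells with a UMI was 16.3, 13.4 and 8.70% in vascular libraries and 1.83, 1.35 and 1.70% in spleen libraries. Vascular replicate 3 had the lowest share of the 3 vascular libraries, and vascular replicate 1 held the cell with the most Klrc1, at 52 UMIs.

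Klrd1, which encodes the CD94 partner of both chains, stood at 41.1, 39.3 and 34 CPM in vascular libraries, against 17.2, 19.4 and 20.3 CPM in spleen libraries. The groups did not overlap, and the difference was smaller than for Klrk1 and Klrc1 (log2 difference 1.00 ± 0.10, adjusted p = 0.000166). Its UMIs were found in 11.3, 11.5 and 11.5% of vascular cells and in 7.60, 7.38 and 7.21% of spleen cells. Of the Klrd1 carriers, 61.3 to 66.0% held exactly 1 UMI in vascular libraries and 72.3 to 74.9% in spleen libraries.

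Klrb1c, the NK1.1 gene, went the other way. It was at 0.965, 1.15 and 1.92 CPM in vascular replicates, against 8.89, 8.19 and 6.78 CPM in spleen replicates, and all vascular libraries lay below all spleen libraries. It fell by 2.54 on the log2 scale in vascular cells (SE 0.24, adjusted p = 0.000113). Its UMIs were in 0.317, 0.456 and 0.771% of vascular cells, against 3.05, 2.21 and 2.04% of spleen cells.

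Klrc2, which encodes the activating chain NKG2C, was rare in both tissues, with 84 UMIs in vascular and 58 in spleen cells. Its level was 1.02, 1.03 and 0.699 CPM in vascular libraries and 0.853, 0.631 and 0.388 CPM in spleen libraries, which overlapped. The log2 difference of 0.66 ± 0.33 did not pass the test (95% interval 0.01 to 1.31, adjusted p = 0.142). Intervals of log2 differences, here and below, use normal quantiles of the SE. They are too narrow for so few libraries, so the adjusted p decides.

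**Figure D1:**
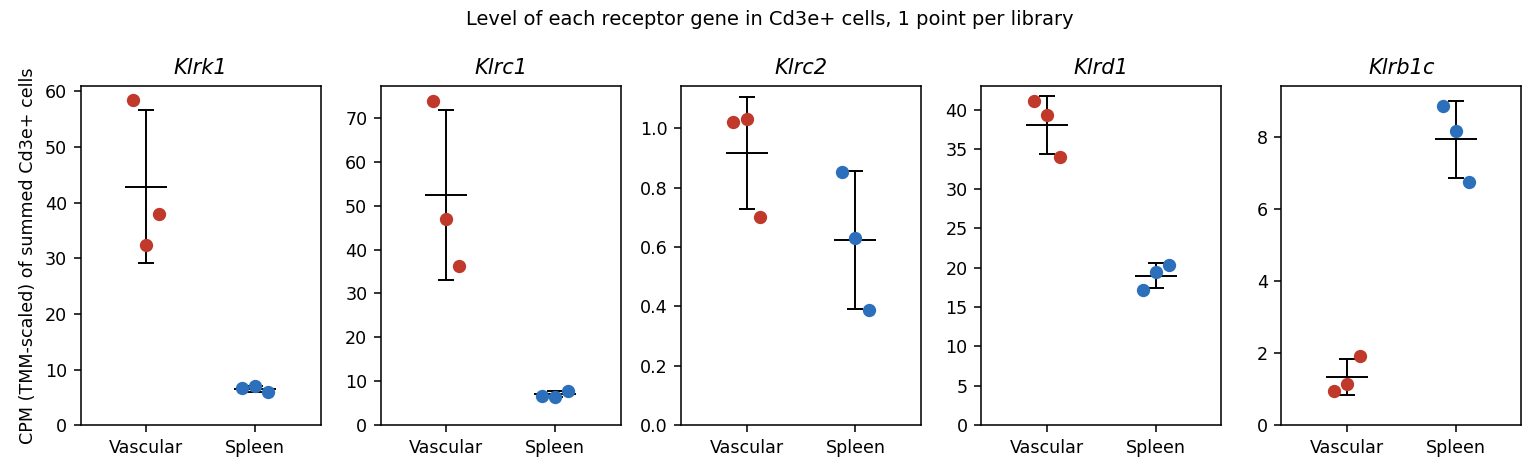
Level of the 5 receptor genes in summed Cd3e+ cells, in CPM scaled by TMM (vertical axis, own scale per gene), with 1 point per library, the mean as a bar and ±1 SD as whiskers (n = 3 per tissue). Vascular points lie above spleen points for Klrk1, Klrc1 and Klrd1, below them for Klrb1c, and among them for Klrc2.

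The plot of levels by library shows that vascular replicate 1 set the upper end for Klrk1 and Klrc1. Because spleen cells were sequenced somewhat deeper, cells were also thinned to 1000 UMIs each, which left out no cell. The thinned share with a Klrk1 UMI was 3.90 ± 0.900% in vascular and 0.562 ± 0.121% in spleen libraries (SD, n = 3), and for Klrc1 4.48 ± 1.39% and 0.627 ± 0.114%. For Klrd1 it was 3.46 ± 0.355% in vascular and 1.71 ± 0.114% in spleen libraries, and for Klrb1c 0.144 ± 0.0331% and 0.803 ± 0.107%. In these 4 genes vascular and spleen libraries were fully separated, and the two-sided exact permutation test over libraries gave p = 0.1 (0.125 adjusted over the 5 genes), the smallest value that 3 against 3 allows. Klrc2 was at 0.0651% in vascular and 0.0674% in spleen libraries (exact permutation p = 0.9).

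Barcodes without Cd3e gave the level found in cells that should lack these receptors. Among Cd3e- Cd79a+ cells, of the B cell kind, 1 of 73 vascular cells held Klrk1, 1 held Klrc1 and 6 held Klrd1 (8.22%, exact binomial 95% interval 3.08 to 17.0%). Of the 196 such cells in spleen, 0 held Klrk1 or Klrc1, which allows a share of up to 1.53%, and 2 held Klrd1 (1.02%). Their median depth was 3753 UMIs in vascular tissue and 3844.5 in spleen. Klrc1 and Klrk1 in vascular Cd3e+ cells were thus well above this background, whereas the vascular share for Klrd1 lay inside the interval of the Cd79a+ barcodes. The background intervals for Klrk1 and Klrc1 reached 7.40% in vascular tissue, so shares under that value, as in Foxp3+ and ungated cells, are not separated from background by these few cells. Cd3e- Siglech+ barcodes were numerous in vascular tissue (1133, against 155 in spleen; median depth 8195 and 7411 UMIs), and 78.6% of them held Klrd1 in vascular tissue and 70.3% in spleen. In the same barcodes Klrk1 was found in 8.12% of vascular and 4.52% of spleen cells, Klrc1 in 3 and 0 cells, and Klrc2 and Klrb1c in 0.

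Klrd1 was thus found in most of these barcodes, and Cd3e+ cells with RNA of plasmacytoid dendritic cells were examined apart. Cd3e+ cells with a UMI of Siglech, Klk1, Ly6d or Tcf4 made up 3.66 to 4.08% of vascular and 1.59 to 2.49% of spleen cells, and 24.6% and 12.1% of them held Klrd1. Without these cells, Klrd1 was found in 10.9% of vascular and 7.24% of spleen cells, and the log2 difference was 0.91 (adjusted p = 0.0003). Without cells holding a marker of any other lineage it was 0.80 (adjusted p = 0.000377). The same 2 exclusions gave 2.76 and 2.72 for Klrk1, 2.92 and 2.75 for Klrc1, and -2.59 and -2.78 for Klrb1c, and all of these passed the test. The exclusion of cells with dendritic markers was chosen after the Klrd1 carriers had been seen. The tissue differences of Klrk1, Klrc1 and Klrb1c were thus as large without such cells, and that of Klrd1 somewhat smaller.

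In cells that also held a Cd4 UMI, Klrk1 differed between tissues by 3.13, Klrc1 by 3.4, Klrd1 by 1.14 and Klrb1c by -1.80 on the log2 scale, all past the test. With this gate Klrc2 passed too (1.90, adjusted p = 0.0381), which it did not in all Cd3e+ cells.

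The gates split the cells unevenly between tissues. Of vascular Cd3e+ cells 49.2% held Cxcr6, the gene of a chemokine receptor of tissue-resident T cells, against 7.01% in spleen, and 29.7% held Ifng, the interferon gamma gene, against 7.78%. Foxp3, the factor that defines regulatory T cells, was found in 9.19% of vascular and 9.50% of spleen cells. Zbtb16, which encodes PLZF, the factor of NKT and other innate-like T cells, was found in 0.197% and 0.933%, and 36.8% of vascular and 79.5% of spleen cells held none of the 4. The gates overlapped, with Cxcr6 found in 71.8% of vascular and 39.0% of spleen Ifng+ cells and in 64.7% and 93.7% of Zbtb16+ cells.

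**Figure D2:**
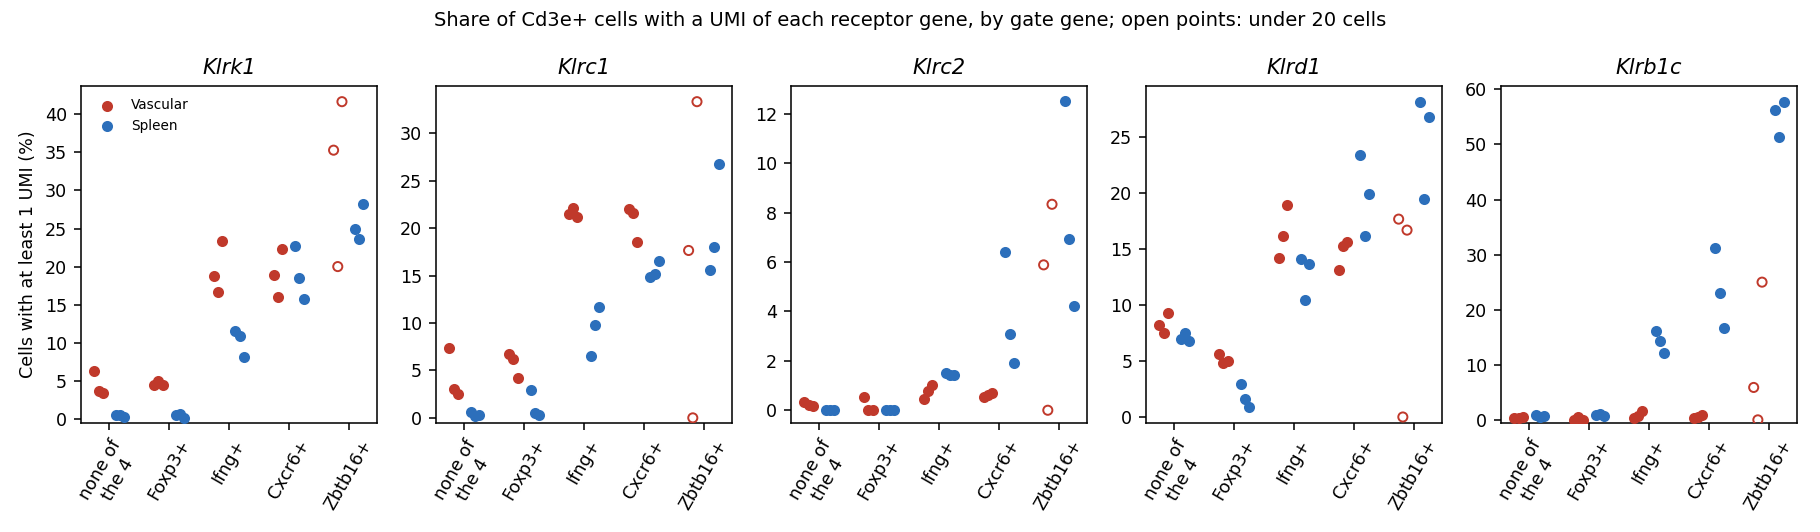
Share of Cd3e+ cells with at least 1 UMI of each receptor gene (vertical axis, %), by gate gene (horizontal axis) and tissue, 1 point per library, with open points for fewer than 20 cells. Klrb1c is high in spleen Cxcr6+ and Zbtb16+ cells and stays low in vascular Cxcr6+ cells, whereas Klrk1 and Klrc1 are of like height in Cxcr6+ cells of both tissues.

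The plot of shares splits the cells by gate. For Klrk1 and Klrc1 the log2 difference of levels was largest outside the gates and in Foxp3+ cells. It was smallest in Cxcr6+ cells, an order without a test. A gate reads a detected UMI, so cells outside it can include expressers missed at this depth. Their part, which may differ between tissues, was not tested. In percentage points, with cells thinned to 1000 UMIs, the Klrk1 shares were furthest apart in Ifng+ cells (3.53 points, against 1.05 in ungated, 0.921 in Foxp3+ and 0.539 in Cxcr6+ cells). In cells with none of the 4 gate genes, 3 of the 4 receptor genes that could be tested were higher in vascular tissue, beside 15.7% of all genes tested. Klrk1 was at 24.9, 12.1 and 12.9 CPM in vascular libraries, against 1.61, 1.25 and 0.714 CPM in spleen libraries (log2 difference 3.91 ± 0.36, adjusted p = 0.0003). Klrc1 was at 34.2, 11.2 and 10.4 CPM in vascular libraries, against 3.03, 0.695 and 0.933 CPM in spleen libraries (3.91 ± 0.61, adjusted p = 0.00227). Both genes were highest in replicate 1 of each tissue, and the tissues did not overlap. Without vascular replicate 1 the Klrc1 difference was 3.13, and without spleen replicate 1 it was 4.47. Klrd1 was higher in vascular tissue by 0.70 ± 0.15 (adjusted p = 0.00839). For Klrb1c, at 0.685 to 1.68 CPM in vascular and 1.39 to 1.80 CPM in spleen libraries, no difference was seen (-0.29, 95% interval -0.93 to 0.34, adjusted p = 0.532), and Klrc2, with 19 UMIs in vascular and 1 in spleen cells, was too rare to test.

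Among Foxp3+ cells (1582 vascular and 1782 spleen) the receptor genes were low, and Klrk1, Klrc1 and Klrd1 were higher in vascular tissue, 3 of 3 that could be tested, beside 14.8% of all genes. Klrk1 stood at 12.5, 13.4 and 10.2 CPM in vascular libraries, against 1.20, 2.28 and 0.686 CPM in spleen libraries (log2 difference 3.0 ± 0.35, adjusted p = 0.000238). Klrc1 stood at 20.8, 18.9 and 9.0 CPM in vascular libraries, against 4.79, 1.25 and 0.915 CPM in spleen libraries (3.2 ± 0.51, adjusted p = 0.00144). The tissues did not overlap in either gene, although the spleen values rested on 16 and 18 UMIs. Without cells holding a marker of another lineage the differences were 4.16 for Klrk1 and 2.56 for Klrc1, both past the test. Leaving out spleen replicate 2 moved the Klrk1 difference to 3.78, and leaving out spleen replicate 1 moved that of Klrc1 to 3.81. The share of Foxp3+ cells with a UMI was 4.61% in vascular tissue and 0.393% in spleen for Klrk1, and 5.63% and 0.673% for Klrc1. Among vascular Foxp3+ cells the carriers were mainly those that also held Cxcr6: Klrk1 was found in 8.88% of the 563 Foxp3+ Cxcr6+ cells and in 2.26% of the 1019 Foxp3+ Cxcr6- cells.

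Klrd1 in Foxp3+ cells was at 19.2, 25.6 and 17.6 CPM in vascular libraries and at 7.18, 5.81 and 4.12 CPM in spleen libraries (log2 difference 1.93 ± 0.24, adjusted p = 0.000392), without overlap. The adaptor gene Tyrobp averaged 204 ± 46.5 CPM in vascular and 40.3 ± 15 CPM in spleen Foxp3+ cells (SD, n = 3). Without cells holding another lineage's marker the Klrd1 difference was 0.83 and did not pass the test (adjusted p = 0.171). Its vascular share of 5.18% lay below the 8.22% of the Cd3e- Cd79a+ cells (6 of 73 cells, interval 3.08 to 17.0%) and is not separated from background. Klrc2, with 3 UMIs in vascular and 0 in spleen Foxp3+ cells, and Klrb1c, with 2 and 22, fell below the filter on low counts.

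Among Ifng+ cells (5106 vascular and 1460 spleen), Klrk1, Klrc1 and Klrd1 were higher and Klrb1c was lower in vascular tissue, 4 of 5 genes beside 27.8% of all genes called. Klrk1 was at 81.3, 56.8 and 85.3 CPM in vascular libraries, against 24.1, 36.9 and 26.6 CPM in spleen libraries (log2 difference 1.32 ± 0.18, adjusted p = 0.000394). Klrc1 was at 98.4, 81.5 and 102 CPM in vascular libraries, against 18.2, 44.2 and 38.5 CPM in spleen libraries (1.39 ± 0.20, adjusted p = 0.000512). In both genes vascular replicate 2 was the lowest of its group and still above every spleen library. Klrd1 differed by 0.67 ± 0.14 (adjusted p = 0.00602), and by 0.51 (adjusted p = 0.0569) without cells holding another lineage's marker, which ends the call. Klrb1c was at 1.16, 1.46 and 3.24 CPM in vascular libraries, against 38.2, 46.3 and 32.4 CPM in spleen libraries. No vascular library came near the spleen range, and the level fell by 4.44 on the log2 scale (SE 0.28, adjusted p = 1.98e-06). Klrc2 was at 1.01 to 1.95 CPM in vascular and 2.35 to 3.74 CPM in spleen libraries, a difference of -1.08 ± 0.38 that missed the threshold (adjusted p = 0.0586) and passed it without vascular replicate 3 (-1.30, adjusted p = 0.0447).

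Among Cxcr6+ cells (8470 vascular and 1316 spleen) levels of Klrk1, Klrc1 and Klrd1 were most alike between tissues and those of Klrb1c furthest apart. Here 3 of 5 genes were called, beside 28.5% of all genes. Klrb1c was at 0.984, 1.25 and 2.24 CPM in vascular libraries, against 77.8, 73.5 and 49.4 CPM in spleen libraries. The groups were far from overlapping, and the level fell by 5.51 on the log2 scale (SE 0.27, adjusted p = 2.5e-06). Its UMIs were found in 0.520% of vascular and 20.9% of spleen Cxcr6+ cells. Klrc2 fell too, to 1.40, 1.16 and 1.29 CPM in vascular libraries, against 8.73, 6.84 and 3.35 CPM in spleen libraries (-2.12 ± 0.36, adjusted p = 0.0021).

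Klrk1 in Cxcr6+ cells was at 82.8, 52.6 and 80.3 CPM in vascular libraries and at 54.8, 59.3 and 48.7 CPM in spleen libraries. Vascular replicate 2 lay inside the spleen range, and the log2 difference of 0.41 (95% interval 0.07 to 0.75) did not pass the test (adjusted p = 0.102). Without vascular replicate 2 it was 0.60 and passed (adjusted p = 0.00702). Klrc1 was at 107, 79.2 and 76.0 CPM in vascular libraries, against 42.1, 57.5 and 64.1 CPM in spleen libraries (0.64 ± 0.17, adjusted p = 0.0175). That call was lost without vascular replicate 1 (0.46, adjusted p = 0.0506) and without spleen replicate 2 (0.66, adjusted p = 0.0625). Klrd1 was at 49.7, 55.2 and 55.2 CPM in vascular libraries and at 48.4, 45.1 and 59.6 CPM in spleen libraries, which overlapped (0.05, 95% interval -0.18 to 0.28, adjusted p = 0.794). With cells thinned to 1000 UMIs, however, a Klrd1 UMI was found in 4.31, 4.72 and 4.65% of vascular Cxcr6+ cells. In spleen the thinned shares were 7.09, 5.62 and 5.78%, all higher (exact permutation p = 0.1, the smallest that 3 against 3 allows).

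**Figure D3:**
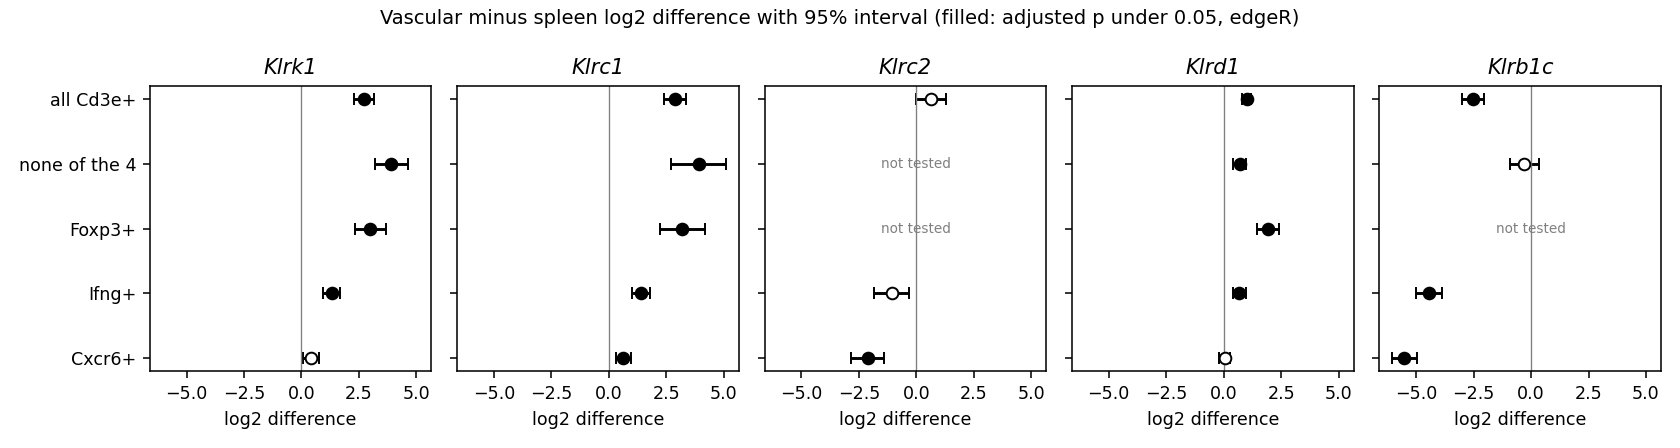
Vascular minus spleen log2 difference of each receptor gene (horizontal axis) with its 95% interval, in all Cd3e+ cells and in 4 of its subsets (vertical axis), filled where the adjusted p in edgeR was under 0.05. The intervals use normal quantiles of the SE and are too narrow for so few libraries. Klrk1 and Klrc1 run from 3.91 in cells with none of the gate genes to 0.41 and 0.64 in Cxcr6+ cells, and Klrb1c from -0.29 to -5.51.

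The plot of tissue differences sets these subsets side by side. Shares of cells were also split by a pair of gate genes. Among Ifng+ Cxcr6+ cells, Klrk1 was found in 21.3% of vascular (95% interval 19.97 to 22.6%) and 19.8% of spleen cells (16.6 to 23.3%), whereas among Ifng+ Cxcr6- cells it was found in 13.7% (12.0 to 15.6%) and 3.37% (2.29 to 4.78%). Among Cxcr6+ Ifng- cells the shares were 17.0% in vascular tissue and 16.0% in spleen. Klrb1c was found in 0.546% of vascular and 27.9% of spleen Ifng+ Cxcr6+ cells, and in 0.499% and 15.5% of Cxcr6+ Ifng- cells. These intervals cover counting error only.

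Zbtb16+ cells were few in vascular tissue, with 17, 5 and 12 cells in replicates 1 to 3, against 32, 72 and 71 in spleen, so no test between tissues was made. Klrb1c was found in 4 of 34 vascular cells (11.8%, exact binomial 95% interval 3.30 to 27.5%) and in 54.9% of 175 spleen cells (47.2 to 62.4%). The other genes had overlapping intervals: Klrk1 was found in 35.3% of vascular (19.7 to 53.5%) and 25.7% of spleen cells (19.4 to 32.9%), and Klrc1 in 20.6% (8.70 to 37.9%) and 21.1% (15.3 to 27.9%).

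In spleen, all 5 genes were higher in Zbtb16+ than in Zbtb16- cells, beside 5.27% of all genes tested. Klrb1c averaged 190 ± 27.0 CPM in Zbtb16+ and 6.10 ± 1.02 CPM in Zbtb16- cells (SD, n = 3; log2 difference 4.95 ± 0.22). Klrk1 averaged 110 ± 24.7 and 5.67 ± 0.692 CPM in Zbtb16+ and Zbtb16- cells (4.28 ± 0.26), and Klrc1 118 ± 20.9 and 6.10 ± 0.745 CPM (4.25 ± 0.24). Klrc2 differed by 5.03 ± 0.66, on 17 UMIs in Zbtb16+ cells, and Klrd1 by 1.83 ± 0.23. Gate-positive libraries stood above gate-negative ones for every gene, with adjusted p of 6.46e-09 or lower in edgeR. With cells thinned to 2000 UMIs before gating, Klrk1 (3.14, adjusted p = 0.0695) and Klrd1 (2.12, adjusted p = 0.112) lost the call. With a gate of at least 2 Zbtb16 UMIs Klrc2 and Klrd1 did. Spleen replicate 1 had 32 Zbtb16+ cells at full depth, and a sum needed 20. These settings leave fewer such cells, so the losses may rest on fewer libraries.

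The receptor genes were next compared between gate-positive and gate-negative cells of the same libraries. The difference of these effects between tissues was tested as an interaction. Gate-negative cells can include expressers whose gate RNA was missed, and their part in the interactions was not tested. Foxp3+ cells had less of all 4 receptor genes that could be tested than Foxp3- cells in both tissues, where 24.5% of all genes in vascular tissue and 15.3% in spleen were lower. Klrk1 averaged 11.3 ± 1.49 CPM in Foxp3+ and 50.9 ± 15.1 CPM in Foxp3- vascular cells (log2 difference -2.20 ± 0.14, adjusted p = 2.91e-08), and 1.29 ± 0.759 and 7.63 ± 0.670 CPM in spleen (-2.46 ± 0.32, adjusted p = 4.39e-05). Klrc1 differed by -2.08 ± 0.15 in vascular tissue and by -2.39 ± 0.34 in spleen, and Klrd1 by -1.21 ± 0.11 and -2.16 ± 0.17, all past the test. Klrb1c, with 2 UMIs in vascular Foxp3+ cells, differed by -2.25 ± 0.30 in spleen. Of the interactions, that of Klrd1 passed with a positive sign, as did 3.09% of all genes (0.95 ± 0.22, adjusted p = 0.0167), and those of Klrk1 (0.26, adjusted p = 0.798) and Klrc1 (0.31, adjusted p = 0.763) did not. The Klrd1 interaction was 0.04 without cells holding another lineage's marker (adjusted p = 0.976), and it also lost the call without spleen replicate 2 (1.03, adjusted p = 0.0736) or spleen replicate 3 (0.70, adjusted p = 0.139).

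Ifng+ cells had more of 3 of the 5 genes than Ifng- cells in vascular tissue (Klrk1, Klrc1 and Klrd1), beside 8.47% of all genes, and of all 5 in spleen, beside 15.7%. The step was larger in spleen for 4 of the 5, beside 6.78% of all genes. Klrk1 averaged 71.0 ± 14.8 CPM in Ifng+ and 33.8 ± 12.6 CPM in Ifng- vascular cells (log2 difference 1.09 ± 0.12, adjusted p = 3.31e-05), and 27.9 ± 6.62 and 4.11 ± 0.326 CPM in spleen (2.84 ± 0.20, adjusted p = 1.36e-07). Klrb1c averaged 1.86 ± 1.08 CPM in Ifng+ and 1.25 ± 0.418 CPM in Ifng- vascular cells, which overlapped (0.54, 95% interval 0.003 to 1.08, adjusted p = 0.21). In spleen Klrb1c averaged 37.1 ± 6.69 CPM in Ifng+ and 4.53 ± 0.463 CPM in Ifng- cells, and these did not overlap (3.05 ± 0.15, adjusted p = 7.24e-09). The interaction was -1.75 for Klrk1 (adjusted p = 0.000239), -2.51 for Klrb1c (0.000135), -1.94 for Klrc1 (0.00949) and -2.43 for Klrc2 (0.0344). Across the vascular Ifng gate the call of Klrc1 was lost in DESeq2 (1.25, adjusted p = 0.129), and across the spleen gate that of Klrc2 was lost with cells thinned to 2000 UMIs (1.83, adjusted p = 0.397). The interaction of Klrc1 was lost without spleen replicate 2 (-1.41, adjusted p = 0.123) and in DESeq2 (-1.66, adjusted p = 0.233). That of Klrc2 was lost without vascular replicate 1 (-1.83), vascular replicate 2 (-2.37), spleen replicate 2 (-2.14) or spleen replicate 3 (-2.16), in DESeq2 (-2.31), with thinned cells (-0.97) and with a gate of at least 2 UMIs (-2.09). Klrd1 differed by 0.76 ± 0.12 in vascular tissue and 0.95 ± 0.15 in spleen, with no interaction called (-0.18, 95% interval -0.55 to 0.19, adjusted p = 0.623).

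In spleen the steps across the Cxcr6 gate were larger than those across the Ifng gate for each of the 5 genes, a comparison without a test. Cxcr6+ cells had more of 3 of the 5 genes than Cxcr6- cells in vascular tissue, beside 11.6% of all genes, and of all 5 in spleen, beside 15.8%. In spleen Klrk1 averaged 51.0 ± 4.98 CPM in Cxcr6+ and 1.82 ± 0.354 CPM in Cxcr6- cells (log2 difference 4.84 ± 0.21, adjusted p = 4.47e-08). In vascular tissue it averaged 67.1 ± 15.7 CPM in Cxcr6+ and 21.3 ± 10.2 CPM in Cxcr6- cells (1.71 ± 0.14, adjusted p = 1.15e-05). Cxcr6+ cells of the tissues were thus close in level, and cells without a detected Cxcr6 UMI were not. Klrb1c averaged 1.39 ± 0.614 CPM in Cxcr6+ and 1.42 ± 0.452 CPM in Cxcr6- vascular cells (-0.04, 95% interval -0.61 to 0.53, adjusted p = 0.939), against 62.9 ± 14.3 and 2.16 ± 0.220 CPM in spleen (4.79 ± 0.17, adjusted p = 1.05e-08). For Klrb1c it was the Cxcr6- cells that were close. All 5 interactions passed with a negative sign, beside 5.65% of all genes: -4.83 for Klrb1c, -3.13 for Klrk1, -2.88 for Klrc1, -5.49 for Klrc2, whose spleen Cxcr6- cells held 5 UMIs, and -0.73 for Klrd1. The last was lost without vascular replicate 1 (-0.53), vascular replicate 2 (-0.78), spleen replicate 1 (-0.72) or spleen replicate 3 (-0.58).

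**Figure D4:**
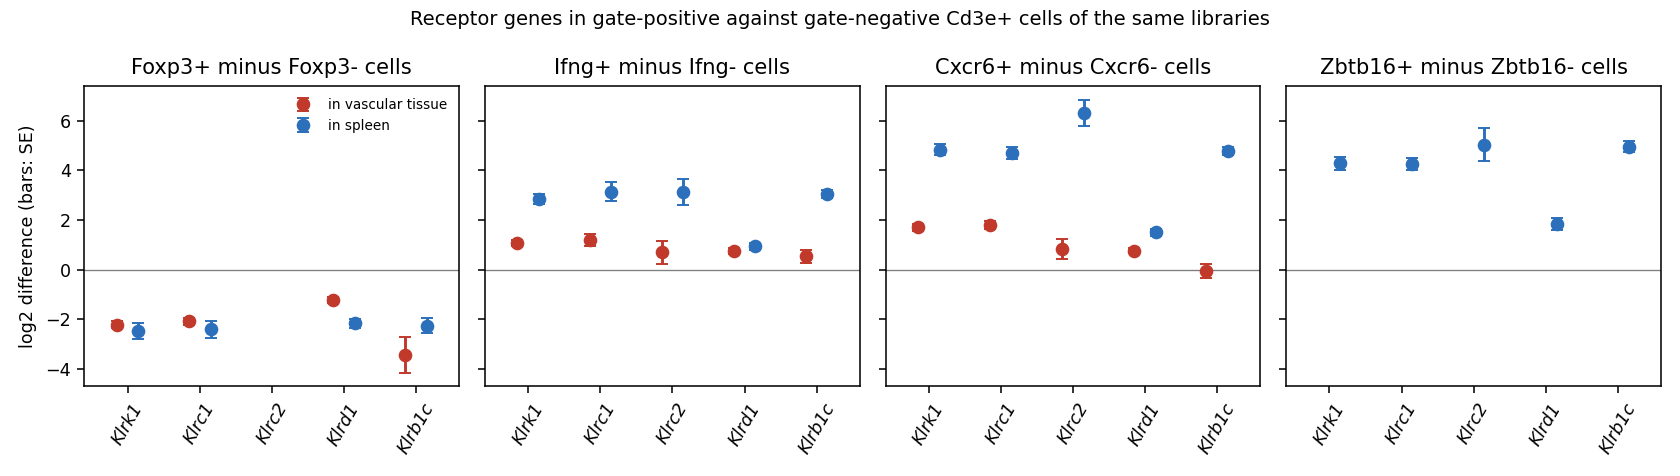
Log2 difference between gate-positive and gate-negative Cd3e+ cells (vertical axis, bars ±1 SE) for each receptor gene (horizontal axis), one panel per gate gene, vascular tissue beside spleen. Foxp3+ cells lie below 0 in both tissues, and in the Cxcr6 panel the spleen points lie at 1.51 to 6.33 and the vascular points at -0.04 to 1.82.

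The plot of gate effects shows steps across the Ifng gate too, in spleen smaller than those across the Cxcr6 gate. For Klrd1 no interaction was called across the Ifng gate, and the vascular Klrb1c step was not smaller there. When cells were sorted into 6 classes that do not overlap, on 1 common CPM scale, the levels in vascular tissue ran, for Klrk1, from 11.3 (Foxp3+) and 19.1 (none of the gates) to 53.7 (Ifng+ only), 72.6 (Cxcr6+ only) and 82.3 CPM (Ifng+ Cxcr6+). The libraries of Foxp3+ cells (9.70 to 12.6 CPM) lay below those of ungated cells (13.9 to 28.6 CPM), these lay below all 3 Ifng or Cxcr6 classes, and among those 3 neighbouring ranges overlapped. In spleen Klrk1 ran from 1.33 (Foxp3+) and 1.36 (none) to 10.4 (Ifng+ only), 44.2 (Cxcr6+ only), 56.9 (Ifng+ Cxcr6+) and 112 CPM (Zbtb16+). There the Foxp3+ and ungated classes overlapped, as did Cxcr6+ only and Ifng+ Cxcr6+, and the other neighbours did not. Klrc1 had the same order in vascular tissue, at 15.3, 21.4, 70.4, 86.5 and 102 CPM, and in spleen ungated cells (1.78 CPM) and Foxp3+ cells (2.21 CPM) overlapped with each other, and Foxp3+ also with Ifng+ only cells (11.3 CPM). Above these stood Cxcr6+ only cells (33.8 CPM), Ifng+ Cxcr6+ cells (64.5 CPM), whose ranges overlapped, and Zbtb16+ cells (120 CPM), which stood apart.

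Klrd1 had the flattest course, from 19.6 CPM in Foxp3+ and 30.6 CPM in ungated vascular cells to 62.1 CPM in Ifng+ Cxcr6+ cells, and from 5.45 CPM in Foxp3+ and 18.5 CPM in ungated spleen cells to 62.6 CPM in Ifng+ Cxcr6+ and 72.4 CPM in Zbtb16+ cells. The last pair overlapped. Klrb1c averaged at most 2.75 CPM in the 5 vascular classes with at least 20 cells in each library, with 5.62 CPM as the highest library (Ifng+ only), and those ranges overlapped, apart from Foxp3+ cells at 0 to 0.546 CPM. The 34 vascular Zbtb16+ cells, with 7 UMIs of Klrb1c and 4 of Klrc2, were too few for a level on this scale. In spleen it ran from 1.87 CPM in both Foxp3+ and ungated cells to 8.20 (Ifng+ only), 38.3 (Cxcr6+ only), 69.8 (Ifng+ Cxcr6+) and 193 CPM (Zbtb16+). Klrc2 was at 16.0 ± 4.83 CPM in spleen Zbtb16+ cells and at most 7.13 CPM on average in the other classes with a level.

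The carriers of Klrk1 and of Klrc1 were mostly Cxcr6+ in both tissues. Of the 2087 vascular Klrk1+ cells 76.6% held Cxcr6, 46.9% Ifng, 3.50% Foxp3 and 0.575% Zbtb16, against 71.4%, 44.0%, 2.15% and 13.8% of the 325 spleen Klrk1+ cells. Of Klrc1+ cells 79.1% of 2257 in vascular tissue and 71.0% of 293 in spleen held Cxcr6. Klrd1+ cells differed between tissues: 61.5% of 1966 held Cxcr6 and 27.4% none of the gate genes in vascular tissue, against 17.9% and 77.2% of 1375 in spleen. Klrb1c+ cells held Zbtb16 in 4.65% of 86 vascular and 23% of 418 spleen carriers. A Cd4 UMI was found in 65.0% of vascular and 47.1% of spleen Klrk1+ cells, and in 58.1% and 43.5% of Klrb1c+ cells. In all spleen Cd3e+ cells the share with Cd4 was 53.7 to 59.9% per library, and the difference was not tested.

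Several receptor genes were found in the same cells. At least 1 of the 5 was detected in 29.4, 25.6 and 22.3% of vascular cells, against 11.5, 10.1 and 9.68% of spleen cells, and at least 2 in 10.3, 8.60 and 7.46%, against 2.35, 1.84 and 1.83%. Both RNAs of the CD94 and NKG2A pair were detected together in 4.57, 3.76 and 3.21% of vascular cells and in 0.610, 0.588 and 0.815% of spleen cells. Klrd1 without Klrc1, Klrc2 or Klrk1 was found in 4.78, 5.63 and 6.12% of vascular cells and in 6.29, 6.44 and 6.03% of spleen cells. All vascular libraries therefore stood above all spleen libraries in cells with several receptor genes. In cells with Klrd1 but without Klrc1, Klrc2 or Klrk1, which could still hold Klrb1c, the libraries overlapped.

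Of vascular Klrk1+ cells 39.8% held Klrc1, against 9.42% of Klrk1- cells, and of spleen Klrk1+ cells 35.4% did, against 0.965%. Klrd1 was found in 33.9% of vascular Klrk1+ cells and 8.31% of Klrk1- cells, and in 40.9% and 6.74% of those in spleen. Klrb1c separated the tissues: it was in 1.10% of vascular Klrk1+ cells, against 0.416% of Klrk1- cells, and in 38.2% of spleen Klrk1+ cells, against 1.59%. Seen from its side, 26.7% of vascular and 29.7% of spleen Klrb1c+ cells held Klrk1. Klrc2+ cells, 74 in vascular tissue and 43 in spleen, held Klrc1 in 68.9% and 62.8%, and the part of the sequence that these neighbours share was not tested. Klrk1+ and Klrk1- cells had nearly the same median depth, 4515 and 4508 UMIs in vascular tissue and 5088 and 5077 in spleen. The median depth of Klrd1+ cells was above that of Klrd1- cells, at 4914.5 and 4461 UMIs in vascular tissue and 5738 and 5028 in spleen, as were vascular Klrc1+ cells, at 4680 against 4481 UMIs in Klrc1- cells. The part of depth in co-detection was not tested.

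**Figure D5:**
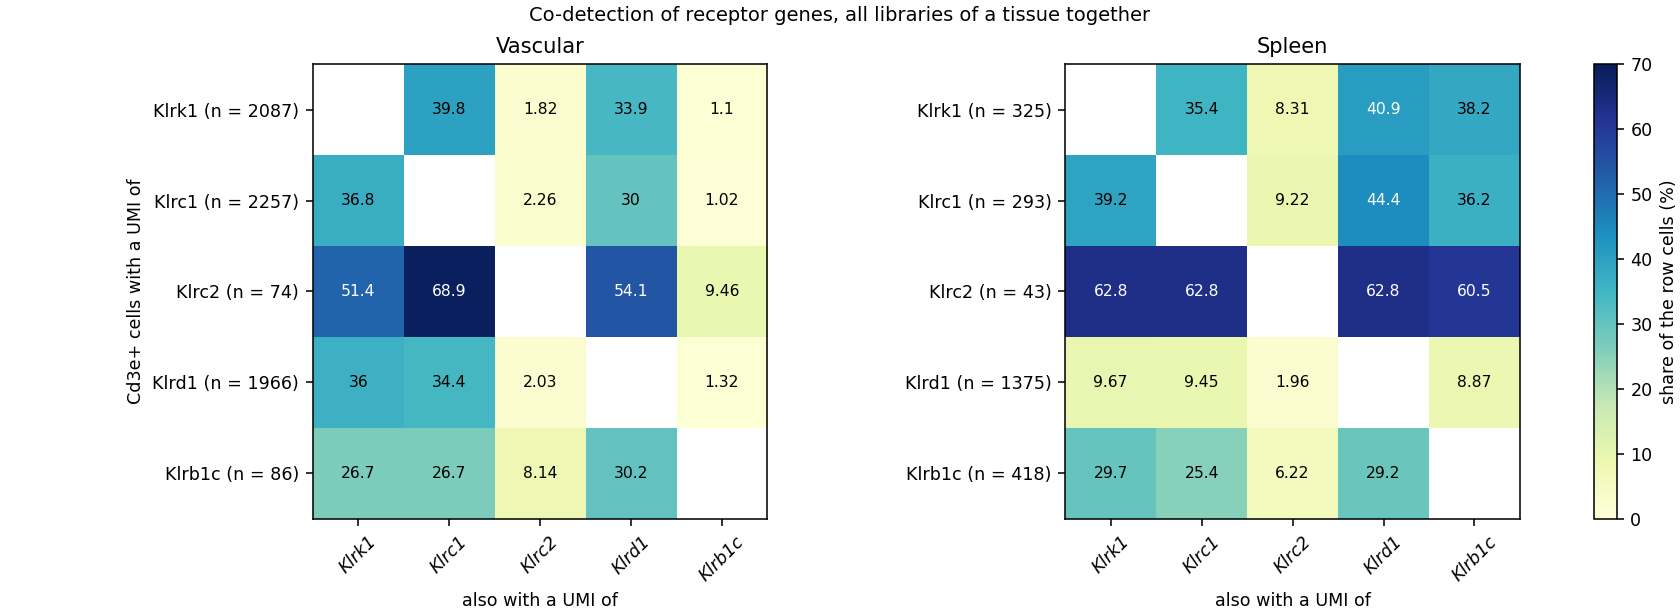
Share (%, colour and numbers) of the Cd3e+ cells with a UMI of the receptor gene in each row that also held a UMI of the gene in each column, with all libraries of a tissue together. The Klrb1c column is at 1.02 to 9.46% in the vascular panel and at 8.87 to 60.5% in the spleen panel.

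The map of co-detection rests on pooled cells and carries no test, so the pairing was tested on sums of carriers and non-carriers per library. Klrk1+ cells exceeded Klrk1- cells in all 4 other receptor genes in both tissues, beside 3.88% of all genes higher in vascular tissue and 6.77% in spleen, and all 4 interactions were negative, beside 3.01%. Klrc1 was higher in Klrk1+ than in Klrk1- cells by 2.55 ± 0.16 in vascular tissue and 5.51 ± 0.24 in spleen (log2; interaction -2.96, adjusted p = 6e-06), Klrd1 by 2.41 ± 0.12 and 3.26 ± 0.16 (interaction -0.84, adjusted p = 0.0132), and Klrb1c by 1.91 ± 0.30 and 4.63 ± 0.18 (interaction -2.72, adjusted p = 6.06e-05). Klrc1 averaged 195 ± 47.8 CPM in vascular and 163 ± 55.2 CPM in spleen Klrk1+ cells (SD), against 34.7 ± 13.7 and 3.78 ± 0.527 CPM in Klrk1- cells. For Klrb1c the carriers were further apart, at 3.98 ± 1.13 and 132 ± 20.1 CPM, against 1.06 ± 0.506 and 5.34 ± 0.542 CPM in Klrk1- cells. Non-carriers can include expressers whose RNA was missed, and their part in the interactions was not tested. The Klrd1 interaction was lost without spleen replicate 1 (-0.69) or spleen replicate 3 (-0.73). With cells thinned to 2000 UMIs the vascular call of Klrb1c was lost (1.43, adjusted p = 0.248), as was the interaction of Klrc2 (-2.31, adjusted p = 0.343). Klrb1c+ cells had more Klrk1 than Klrb1c- cells in spleen (4.90 ± 0.17), and in vascular tissue the difference of 0.79 ± 0.27 did not pass (adjusted p = 0.126). That interaction was -4.11 ± 0.26 (adjusted p = 4e-21).

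Klrc1+ cells had more Klrk1 than Klrc1- cells, by 2.17 ± 0.11 in vascular tissue and 4.98 ± 0.19 in spleen, and more Klrd1, the partner chain, by 1.92 ± 0.09 and 3.01 ± 0.13. Klrb1c was higher in spleen Klrc1+ cells (4.11 ± 0.31), and in vascular tissue its difference of 1.41 ± 0.51 did not pass (adjusted p = 0.108). In all, 3 of 4 genes were higher in vascular tissue, beside 3.86% of all genes, and 4 of 4 in spleen, beside 7.92%, with 4 negative interactions, beside 3.74%. Of these interactions that of Klrb1c was lost in DESeq2 (-2.61, adjusted p = 0.0959) and that of Klrc2 with thinned cells (-3.01, adjusted p = 0.407). Klrd1+ cells were higher in all 4 other genes in both tissues, beside 7.12% of all genes in vascular tissue and 5.2% in spleen. Klrc1 differed there by 1.92 ± 0.15 in vascular tissue and 4.0 ± 0.24 in spleen, and Klrk1 by 2.07 ± 0.12 and 3.62 ± 0.20, the 2 of 4 interactions that passed, beside 2.14%. Klrb1c+ cells were higher in 3 of 4 genes in vascular tissue, beside 0.599% of all genes, and in 4 of 4 in spleen, beside 6.64%, with 2 negative interactions, beside 2.21%. At 2000 UMIs per cell, 0.193, 0.206 and 0.377% of the 7258, 4368 and 5575 cells of vascular replicates 1 to 3 held Klrb1c. By these shares only replicate 3 reached the 20 cells needed for a sum. The thinned values of vascular Klrb1c+ cells thus rest on that library alone: -1.26 for Klrd1 (1.72 unthinned), 0.23 for Klrc1 and 4.81 for Klrc2. They cannot decide whether these differences hold at lower depth. In vascular Klrb1c+ cells Klrc1 lost its call without cells holding another lineage's marker (0.46, adjusted p = 0.797). Klrc2+ cells were higher in all 4 others in vascular tissue, beside 0.314%.

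Genes that went with each receptor are given as examples from the largest differences. Klrk1+ cells had more Gzma, a granzyme of cytotoxic cells, than Klrk1- cells, by 2.49 ± 0.19 on the log2 scale in vascular tissue and 5.82 ± 0.20 in spleen. Ifitm1, of an interferon-induced family, was higher by 3.43 ± 0.24 and 3.68 ± 0.35. In spleen the list also held Xcl1 (4.33 ± 0.28), a chemokine of NK and activated CD8 T cells, Cxcr6 (3.53 ± 0.13) and Il17a (3.58 ± 0.64), and Ccr7, the lymph node homing receptor of naive T cells, was lower (-3.12 ± 0.10). Dapl1 and Igfbp4 were lower in carriers of both tissues, by -4.21 ± 0.27 and -4.10 ± 0.18 in vascular tissue and by -3.58 ± 0.26 and -3.73 ± 0.18 in spleen. The largest negative differences of Klrk1+ cells were those of Hbb-bs in vascular tissue (-6.80 ± 0.92) and Jchain in spleen (-5.22 ± 0.65). Jchain was lower in vascular Klrk1+ cells too (-3.49 ± 0.25), and among the lowest in Klrd1+ and Klrb1c+ cells of both tissues. The vascular list also held the MHC class II genes H2-Eb1 (1.72 ± 0.29) and H2-Ab1 (1.59 ± 0.31), which present antigen in antigen-presenting cells.

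Markers of other cell types moved with the carrier genes. The 9 NK markers, among them Gzma, Tyrobp and Fcer1g, summed to 183 to 461 CPM in vascular and 758 to 1188 CPM in spleen Klrk1+ cells, and to 587 to 829 CPM and 275 to 432 CPM in Klrd1+ cells. Tyrobp and Fcer1g were higher in vascular Klrd1+ than Klrd1- cells by 4.43 ± 0.12 and 3.38 ± 0.16. Both also went with dendritic markers, so these sums do not mark NK cells alone. Both CD8 genes together stood at 54.5 to 94.6 CPM in vascular and 2.66 to 40.7 CPM in spleen Klrk1+ cells, and at 100 to 152 CPM and 16.4 to 37.8 CPM in Klrd1+ cells. The 7 macrophage markers summed to 67.6 to 202 CPM in vascular and 78.4 to 307 CPM in spleen Klrk1+ cells, against 50.9 to 71.1 CPM and 50.9 to 73.5 CPM in all Cd3e+ cells. Receptor genes were also fitted in carriers without cells holding a UMI of Ncr1, Cd8a, Cd8b1, C1qa, C1qb or another lineage's marker. The part of such cells in the other genes named for carriers was not tested.

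Klrc1+ cells too had more Gzma than Klrc1- cells, by 2.70 ± 0.12 in vascular tissue and 5.20 ± 0.13 in spleen. Lgals3, the galectin-3 gene, was higher by 1.41 ± 0.14 and 3.72 ± 0.17. The MHC class II gene H2-Aa was lower in spleen Klrc1+ cells (-3.91 ± 0.30). Klrd1+ cells were led in vascular tissue by Tyrobp (4.43 ± 0.12), Ly6d (4.01 ± 0.10) and the MHC class II genes H2-Aa (3.98 ± 0.22), H2-Ab1 (3.88 ± 0.25) and H2-Eb1 (3.66 ± 0.27), the class II genes being those of antigen-presenting cells. In spleen H2-Eb1 (3.83 ± 0.31), H2-Ab1 (3.81 ± 0.29) and H2-Aa (3.70 ± 0.25) also stood high in Klrd1+ cells, beside Gzma (4.58 ± 0.20) and Klrc1 (4.0 ± 0.24). Foxp3 was lower in Klrd1+ cells of both tissues (-1.94 ± 0.13 and -2.81 ± 0.19). A Siglech UMI was found in 5.70% of vascular and 0.727% of spleen Klrd1+ cells, and the part of such cells in these gene differences was not tested.

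Klrb1c+ cells had more Xcl1 than Klrb1c- cells in both tissues, by 3.02 ± 0.20 in vascular tissue and 4.98 ± 0.14 in spleen. In vascular tissue Cd7 (2.89 ± 0.23), the adaptor Tyrobp (1.61 ± 0.18) and the chemokine genes Ccl4 (1.53 ± 0.30) and Ccl5 (1.23 ± 0.12) were also higher, and in spleen Cxcr6 (3.96 ± 0.11), Ckb (2.96 ± 0.11) and Ctsw (2.78 ± 0.11). H2-Aa was lower in spleen Klrb1c+ cells (-3.78 ± 0.33). Klrc2+ cells, tested in vascular tissue only, had more Xcl1 (2.24 ± 0.30), Cd7 (2.17 ± 0.32) and Fcer1g (1.89 ± 0.30).

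Partners of the receptors were then taken as lists and compared between all vascular and all spleen Cd3e+ cells, where 22.6% of genes were higher and 18.1% lower and the median difference of all genes was 0.01. Of the 4 adaptor genes 3 were higher and 0 lower (median 0.77). Hcst, the DAP10 gene, was at 947, 821 and 600 CPM in vascular libraries, against 522, 568 and 546 CPM in spleen libraries (log2 difference 0.53 ± 0.15, adjusted p = 0.0206), with vascular replicate 3 the lowest of its group and still above spleen. Tyrobp, the DAP12 gene, was at 79.5, 85.1 and 65.0 CPM in vascular libraries and 24.7, 23.3 and 21.4 CPM in spleen libraries (1.73 ± 0.11, adjusted p = 2.13e-05). Without cells holding a UMI of the 4 dendritic markers, the level of Tyrobp was instead lower in vascular tissue (-0.52, adjusted p = 0.0116) and Fcer1g, at 1.01 in all cells, was at 0.10 (adjusted p = 0.702), while Hcst stayed at 0.57 (adjusted p = 0.0156). Cd247, the CD3 zeta gene, was at -0.13 (adjusted p = 0.254).

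Of 9 ligand genes 5 could be tested, of which 2 were higher and 1 lower (median 0.24). H60b, a ligand of NKG2D, was higher by 2.18 ± 0.49 (adjusted p = 0.00735) at 1.76, 1.36 and 0.973 CPM in vascular libraries, against 0.782, 0.180 and 0.216 CPM in spleen libraries, and Ulbp1, another, by 0.64 ± 0.17 (adjusted p = 0.0149). H2-T23, which encodes Qa-1, was at 218, 246 and 217 CPM in vascular and 240, 150 and 187 CPM in spleen libraries, which overlapped (0.24, adjusted p = 0.24). Clec2i, of the family that Klrb1 receptors bind, was lower by -0.35 ± 0.11 (adjusted p = 0.0275). Of 9 genes for kinases and phosphatases below the receptors 2 were higher, Inpp5d (0.75 ± 0.12), the SHIP1 gene, and Syk (0.76 ± 0.27, adjusted p = 0.0479), and 1 was lower, Ptpn6 (-0.47 ± 0.10), the gene of the phosphatase SHP-1 that NKG2A recruits. Without cells holding a UMI of the dendritic markers, Syk was instead lower in vascular tissue (-1.72, adjusted p = 0.0139 in edgeR). In DESeq2, with all cells, its call was lost (0.74, adjusted p = 0.0606).

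Other lectin-like genes of the NK complex were mostly rare: of 23 listed 22 were in the files, 9 could be tested, 5 were higher and 0 lower in vascular cells. Klrg1, an inhibitory receptor of effector cells, was at 60.7, 57.3 and 49.5 CPM in vascular libraries, against 15.4, 11.2 and 13.1 CPM in spleen libraries (2.09 ± 0.13, adjusted p = 1.68e-05). Klrb1b (2.78 ± 0.48) and Klrb1f (1.18 ± 0.27), relatives of Klrb1c, were higher where Klrb1c was lower. Klra17 (4.0 ± 0.48), a receptor known from plasmacytoid dendritic cells, gave no value once cells with dendritic markers were left out, and Klra9 had 15, 12 and 19 UMIs in vascular libraries and 0 in spleen. Cd69 was at 0.35 (adjusted p = 0.192) and Klre1 at 0.67 (adjusted p = 0.215).

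Of 9 regulators tied to these receptors 7 were higher and 2 lower. Il12rb2, a chain of the interleukin-12 receptor, was at 51.2, 36.7 and 22.2 CPM in vascular libraries, against 6.26, 3.45 and 4.27 CPM in spleen libraries (3.05 ± 0.32, adjusted p = 0.000183). Il18r1 (2.09 ± 0.17), the T-box factor Tbx21 (1.76 ± 0.23), Id2 (1.23 ± 0.17), Runx3 (0.76 ± 0.12), Il2rb (0.68 ± 0.11) and Il15ra (0.68 ± 0.12) were higher too. The lower ones were Zbtb16 (-2.43 ± 0.33), in the same direction as Klrb1c, and Eomes (-1.12 ± 0.20), the T-box factor of NK cells. The summed level of a list of 4 NKT markers was instead higher in vascular Cd3e+ cells. It was 93.05 to 153.6 CPM in vascular and 44.97 to 59.05 CPM in spleen libraries. In Cxcr6+ cells the sum was lower in vascular libraries, at 150.3 to 182.4 CPM against 188.5 to 291.2 CPM. It was lower in vascular Klrk1+ cells too, and in Klrd1+ cells the tissues overlapped. Which genes of the list carried these sums was not tested.

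Genes whose level ran most like that of each receptor were ranked by Pearson's r over 33 sums of the 6 classes, among 7020 genes, as a description without p, since sums share libraries and depth. Klrk1 ran closest with Il12rb2 (r = 0.95), Ctsw (0.944) and Fasl (0.936), the Fas ligand gene, and Klrc1 with the same 3 (0.947, 0.960 and 0.942). Klrd1 ran closest with St3gal6 (0.949) and Fasl (0.905). Klrb1c stood apart, with Cd160 (0.967), Il4 (0.953), the interleukin-4 gene, and Serpina3f (0.947), and Klrc2, with few UMIs, reached at most 0.820, with Nedd4.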

How the data were processed

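The deposited files were whole-number UMI counts per gene and cell barcode, 1 matrix for each of 6 libraries. Per the submitters' processing notes the authors used FastQC 0.11.8, Cell Ranger 2.2.0, STAR 2.5.1b and Seurat with the mouse build mm10, and the counts had not been normalized. Libraries held 14836442 to 55483411 UMIs.

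Barcodes with fewer than 300 detected genes or over 10% of UMIs from mitochondrial genes were left out. Doublets were predicted with simulated doublets at a rate of 0.8% per 1000 barcodes, on 2000 variable genes and 30 components. A gate meant at least 1 UMI of its gene. Counts were summed per library and gate, where at least 20 cells were present, and tested with edgeR 4.0.16 (quasi-likelihood, TMM, limma 3.58.1, R 4.3.3), with Benjamini-Hochberg adjustment over all genes tested. Differences between positive and negative cells kept the library as a block. DESeq2 1.42.0 was an alternative. Other steps used Python 3.11.15, numpy 2.4.6, scipy 1.17.1 and scikit-learn 1.9.0. Shares carry exact binomial (Clopper-Pearson) 95% intervals, and these and the limits for a count of 0 (3 counts) cover counting error only. The 95% intervals of log2 differences took normal quantiles of the SE, narrower than the F test, so one that leaves out 0 is not a call. Thinning to 1000 UMIs per cell was the comparison of shares.

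Counts were simulated with the same spread for every gene and no library effect, so power and error in the real data were not measured. On these counts, 84 of 100 genes changed by log2 1 and 99 of 100 changed by log2 2 were recovered in the comparison of all Cd3e+ cells (12114 genes, 8 false calls). In that of Cxcr6+ with Cxcr6- cells 80 and 95 of 100 were (11392 genes, 5 false calls).

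The members and the lists were chosen with earlier results of these data known. Named genes were the 5 members, the listed partners, from the fits of carriers examples among the 8 largest positive and 4 largest negative differences at an adjusted p under 0.05 and a log CPM of at least 5, and the 5 genes most alike by Pearson's r of log2(CPM + 10) at a mean of at least 10 CPM. The labels do not say whether replicate numbers pair the samples, and samples were not paired in the main fits. In deviations from the group means, same-numbered vascular and spleen libraries correlated at 0.04, -0.005 and 0.129. Other pairs ran from -0.105 to 0.074. With 3 libraries per tissue these values cannot show whether equal numbers share an animal. Alternatives were other cell filters and gates, thinning, DESeq2, no low-count filter, a replicate block, and leaving out each library.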

Additional observations from a re-analysis of the deposited data

Results flagged for a closer look

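For 22 results the effect of a gate or a carrier gene differed between vascular tissue and spleen by the interaction test in edgeR (adjusted p under 0.05). Values are the vascular log2 effect minus the spleen log2 effect, so a negative one means a larger step in spleen. For Foxp3+ against Foxp3- cells the value was 0.95 for Klrd1. For Ifng+ against Ifng- cells it was -2.51 for Klrb1c, -1.75 for Klrk1, -2.43 for Klrc2 and -1.94 for Klrc1. For Cxcr6+ against Cxcr6- cells it was -4.83 for Klrb1c, -0.73 for Klrd1, -3.13 for Klrk1, -5.49 for Klrc2 and -2.88 for Klrc1.

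For Klrk1+ against Klrk1- cells the difference between tissues was -2.72 for Klrb1c, -0.84 for Klrd1, -3.36 for Klrc2 and -2.96 for Klrc1. For Klrc1+ against Klrc1- cells it was -2.70 for Klrb1c, -1.09 for Klrd1, -2.82 for Klrk1 and -2.72 for Klrc2. For Klrd1+ against Klrd1- cells it was -1.56 for Klrk1 and -2.08 for Klrc1. For Klrb1c+ against Klrb1c- cells it was -4.11 for Klrk1 and -3.66 for Klrc1. Of the carrier results, that of Klrc2 in Klrk1+ cells lost the call without spleen replicate 2 (-2.74) and with cells thinned to 2000 UMIs (-2.31, adjusted p = 0.343), and that of Klrc2 in Klrc1+ cells with thinned cells (-3.01) and without vascular replicate 1 (-2.29), vascular replicate 2 (-2.56), spleen replicate 2 (-2.16) or spleen replicate 3 (-2.49). That of Klrd1 in Klrk1+ cells lost it without spleen replicate 1 (-0.69) or spleen replicate 3 (-0.73).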

How the results depend on the processing

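Of the tissue differences 183 of 196 values under other settings kept their direction and side of the threshold, as did 127 of 132 with 1 library left out. Within tissues 697 of 729 and 534 of 567 did. The cause of the exceptions was not tested. With predicted doublets kept, Klrc2 was at 0.82 in all Cd3e+ cells and at -1.02 in Ifng+ cells, and Klrb1c at 0.18 in vascular Cxcr6+ against Cxcr6- cells. With a Cd4 UMI required, Klrc2 was at 1.90 in all Cd3e+ cells, Klrk1 at 0.93 in Cxcr6+ cells and Klrb1c at 0.0033 in ungated cells. Without cells of another lineage's marker, Klrd1 was at 0.83 in Foxp3+, 0.51 in Ifng+ and -0.16 in Cxcr6+ cells, Klrc2 at -1.21 in Ifng+ cells, the Foxp3 interaction at 0.042 for Klrd1 and -0.14 for Klrc1, and Klrb1c at 0.022 across the vascular Cxcr6 gate. Without cells of dendritic markers, Klrc2 was at -1.23 in Ifng+ and Klrd1 at -0.038 in Cxcr6+ cells, and the Foxp3 interaction of Klrd1 at 0.26. With at least 2 Cd3e UMIs, Klrc2 was at -1.10 in Ifng+ cells, and with no low-count filter Klrk1 was at 0.44 in Cxcr6+ cells.

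Thinned to 2000 UMIs, the Foxp3 interaction was -0.026 for Klrd1 and -0.38 for Klrc1, and the Ifng interaction -0.66 for Klrd1 and -0.97 for Klrc2. Klrc2 was then at 1.83 across the spleen Ifng gate and -0.038 across the vascular Cxcr6 gate. Klrd1 and Klrk1 were at 2.12 and 3.14 across the spleen Zbtb16 gate. Klrd1 in vascular Klrb1c+ cells was at -1.26, on vascular replicate 3 alone by the shares of carriers. With gates of at least 2 UMIs, the interactions were 0.91 (Klrd1, Foxp3) and -2.09 (Klrc2, Ifng), and the Zbtb16 gate gave 0.60 for Klrd1 and 5.02 for Klrc2. DESeq2 gave 1.25 for Klrc1 across the vascular Ifng gate and interactions of -2.31 for Klrc2 and -1.66 for Klrc1. The share of Klrc2+ cells differed by 0.018 percentage points when thinned to 2000 UMIs and by 0.145 unthinned. Genes below the low-count filter gave no value under some settings.

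With 1 library left out, Klrc2 in Ifng+ cells ran from -1.30 to -0.78. In Cxcr6+ cells Klrd1 ran from -0.0496 to 0.21, Klrk1 from 0.30 to 0.60 and Klrc1 from 0.46 to 0.77. Foxp3 interactions ran from -5.67 to 0.0097 (Klrb1c), 0.70 to 1.12 (Klrd1), -0.091 to 0.99 (Klrk1) and -0.18 to 0.98 (Klrc1). Ifng interactions ran from -2.99 to -1.83 (Klrc2) and -2.35 to -1.41 (Klrc1), the Cxcr6 interaction of Klrd1 from -0.89 to -0.53, Klrb1c across the vascular Cxcr6 gate from -0.17 to 0.037, and the interaction of Klrb1c in Klrd1+ cells from -0.98 to 0.064. Genes called numbered 3349 to 6048 in all Cd3e+ cells, 1572 to 3050 in Foxp3+, 1743 to 3322 in Ifng+, 1815 to 3565 in Cxcr6+ and 1426 to 3633 in ungated cells.

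With the replicate number as a block (replicate block), the differences in all Cd3e+ cells were 2.64 for Klrk1, 2.79 for Klrc1, 1.00 for Klrd1, -2.55 for Klrb1c and 0.62 for Klrc2, with 4888 genes called. The block changed no call of the receptor genes in any tissue comparison.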
